A study of Mus musculus with 10 samples.

Results

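The genes described here are 39 genes that act in G2 phase and mitosis, from the proliferation marker Mki67 and the topoisomerase Top2a to cyclins, mitotic kinases, spindle motors, kinetochore proteins and cytokinesis factors. They were taken as a named list, chosen with earlier results of these data known. The list was matched by symbol to the Ensembl rows of an RNA count table. All 39 were found among 22553 genes, and all 39 passed the filter on low counts. The RNA came from regulatory T cells (Treg), a suppressive class of CD4 T cells defined by Foxp3, sorted as YFP+ cells from the spleen and lymph nodes of female C57BL/6 mice. Knockout (KO) mice were Tfamfl/flFoxp3Yfp-Cre/+, with both alleles floxed of Tfam, which encodes a protein that packages mitochondrial DNA and drives its transcription. Control (Ctrl) mice were Tfamfl/+Foxp3Yfp-Cre/+ littermates, so Ctrl Treg can lose 1 Tfam copy as well. Every mouse carried the YFP-Cre allele at the Foxp3 locus on 1 X chromosome, and both deletion and sorting therefore depended on Foxp3 expression from that allele. There were 3 KO and 3 Ctrl libraries, numbered 1 to 3 in each genotype, and each pooled the Treg of 2 to 3 mice. The sources used here give no age.

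A cell enters mitosis when CDK1, bound to cyclin A or B, is switched on by CDC25 phosphatases. Polo-like and Aurora kinases then build the spindle, the checkpoint holds anaphase until every kinetochore is attached, and the anaphase-promoting complex (APC/C) with CDC20 destroys cyclin B and releases the chromosomes. Most of these genes are transcribed mainly late in the cell cycle, so their transcripts in a cell population track the cells that are in or near division. Treg of lymphoid organs hold a dividing fraction, which lies largely among activated, effector-type cells.

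The libraries held between 19087757 and 23794028 gene counts in KO and between 21419772 and 27490253 in Ctrl. Levels are given as CPM, each gene's count relative to the library total, scaled by TMM factors that correct for RNA composition, and a level of 3 counts was 0.110 to 0.157 CPM. Tfam had 15.6, 14.4 and 16.5 CPM in KO libraries 1 to 3, against 25.9, 30.6 and 42.4 CPM in Ctrl libraries 1 to 3, which was 2.13-fold lower in KO (edgeR, adjusted p = 0.020). Foxp3 ranged from 783 to 873 CPM in KO and from 688 to 853 CPM in Ctrl, Cd4 from 575 to 582 CPM in KO and from 606 to 638 CPM in Ctrl, Cd3e from 283 to 308 CPM in KO and from 292 to 320 CPM in Ctrl, and Il2ra from 317 to 326 CPM in KO and from 309 to 316 CPM in Ctrl. The defining Treg transcripts were therefore present in every library, and none of the 4 was called. The labels do not say whether the pools were prepared separately, so p-values reflect pool-to-pool spread, part of which may be technical.

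Each of the 39 genes had a lower fitted level in KO than in Ctrl Treg, while the libraries within a genotype also differed widely. The 39 genes summed to 442, 438 and 303 CPM in KO libraries 1 to 3, against 545, 801 and 388 CPM in Ctrl libraries 1 to 3. KO libraries 1 and 2 therefore stood above Ctrl library 3, and the groups overlapped in this sum. The number 3 library was lowest in both genotypes. In bulk RNA, fewer dividing cells and less RNA per dividing cell cannot be told apart.

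The same libraries stood high or low for most of the genes. Ctrl library 2 was the highest of the 6 libraries for 39 of 39 genes, against 17.1% of all tested genes. KO library 3 was the lowest KO library for 35 of 39, against 39.3% of all tested genes, and Ctrl library 3 the lowest Ctrl library for 36 of 39, against 36.1%. The highest library exceeded the lowest by a median of 1.94-fold within KO and 2.49-fold within Ctrl. For the other tested genes with no count of 0, these medians were 1.17-fold and 1.19-fold (n = 11929).

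**Figure D1:**
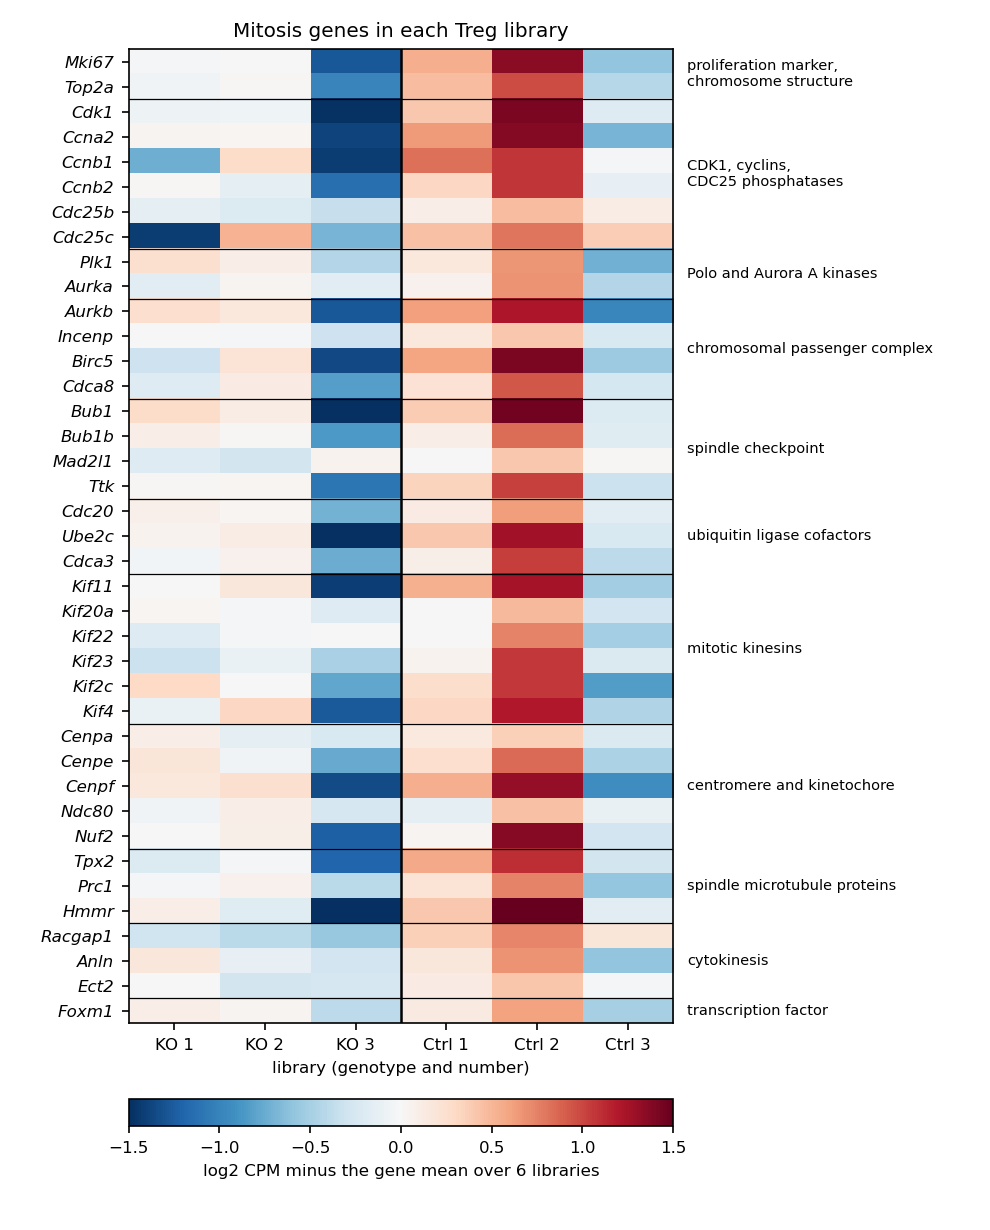
Heat map of the 39 mitosis genes (rows, grouped by role) in the 3 KO and 3 Ctrl libraries (columns), coloured by log2 CPM minus the mean of that gene over the 6 libraries. Ctrl library 2 is the highest for all 39 genes, and KO library 3 is the lowest of the KO libraries for 35 of them.

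The layout allows a pair of comparisons. The first sets the 3 KO against the 3 Ctrl libraries with edgeR's quasi-likelihood test, unpaired. The second adds the library number as a block, so that KO is compared with Ctrl inside each number. Same-numbered libraries deviated together from their genotype means, with correlations of 0.35, 0.55 and 0.55 for numbers 1 to 3 over the 11951 tested genes outside the list, although the labels do not say what a number stands for. Calls required an adjusted p under 0.05, with Benjamini-Hochberg adjustment over all 11990 tested genes.

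Unpaired, 1 of 39 genes was called lower in KO, Racgap1, and 0 were called higher; over all tested genes the shares were 1.39% lower and 0.1% higher. At an unadjusted p under 0.05, 6 of the 39 were lower, against 7.22% of all tested genes. Limma-voom called 0 of the 39, where it called 1.13% of all tested genes lower, and DESeq2 called Racgap1 and Cdc25b, where it called 2.19% lower. The fitted value was below 0 for all 39, against 6140 of all 11990 tested genes. Because the 39 genes rose and fell in the same libraries, these are not 39 separate observations. Their median log2 fold change was -0.65, while the median over all tested genes was -0.005. That direction rested partly on Ctrl library 2, since without it 30 of 39 genes remained below 0 and the median was -0.18. With the number as block, 16 of 39 genes were called lower and 0 higher, against 4.39% and 1.97% of all tested genes. The other 23 genes did not pass, and the median log2 fold change was -0.62. Since the list was chosen with earlier results of these data known, its shares of calls are a description and not a test. Counts were also simulated with known changes and with a built-in effect shared by same-numbered libraries. On these the fit with the block made more false calls than its threshold allows, which the unpaired fit did not. Adjusted p-values with the block may therefore be too small. The simulated effect was drawn for each gene separately, whereas the 39 genes moved together, so the simulation cannot say by how much. DESeq2 with the block called 10 of the 16 and no other member, where it called 2.5% of all tested genes lower.

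Within a number, KO was below Ctrl for 34 of 39 genes in number 1, 39 of 39 in number 2 and 30 of 39 in number 3. Of the 11929 other tested genes with no count of 0, this held for 5981, 5572 and 6632. The number 2 count follows from Ctrl library 2 being the highest library for all 39 genes, so it is not a separate result. The median fold by which KO was lower was 1.18, 1.87 and 1.47 in numbers 1 to 3, against 1.00, 0.99 and 1.02 for those other genes. A total of 29 genes were lower in KO in all 3 numbers, as were 23.7% of all tested genes. The 29 include Bub1b, nearly level in number 1, and Cenpa, nearly level in number 3. In all 3 numbers, 0 of the 39 were higher in KO, against 2594 of all 11990 tested genes. Mki67, Top2a, Cdc25b, Birc5, Kif11, Tpx2 and Racgap1 made up the 7 genes called with the block and also after leaving out each number in turn. These fits share libraries, use the same block and rest on few libraries, so they are not independent checks. Without number 1, 15 of the 39 were called lower with the block, against 2.77% of all tested genes, and 13 of these were among the 16, the others being Bub1 and Bub1b. Without number 2, 7 were called, against 4.09%, and without number 3, 8 were called, against 2.55%. Unpaired and without number 2, 0 of the 39 were called, against 0.446% of all tested genes.

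**Figure D2:**
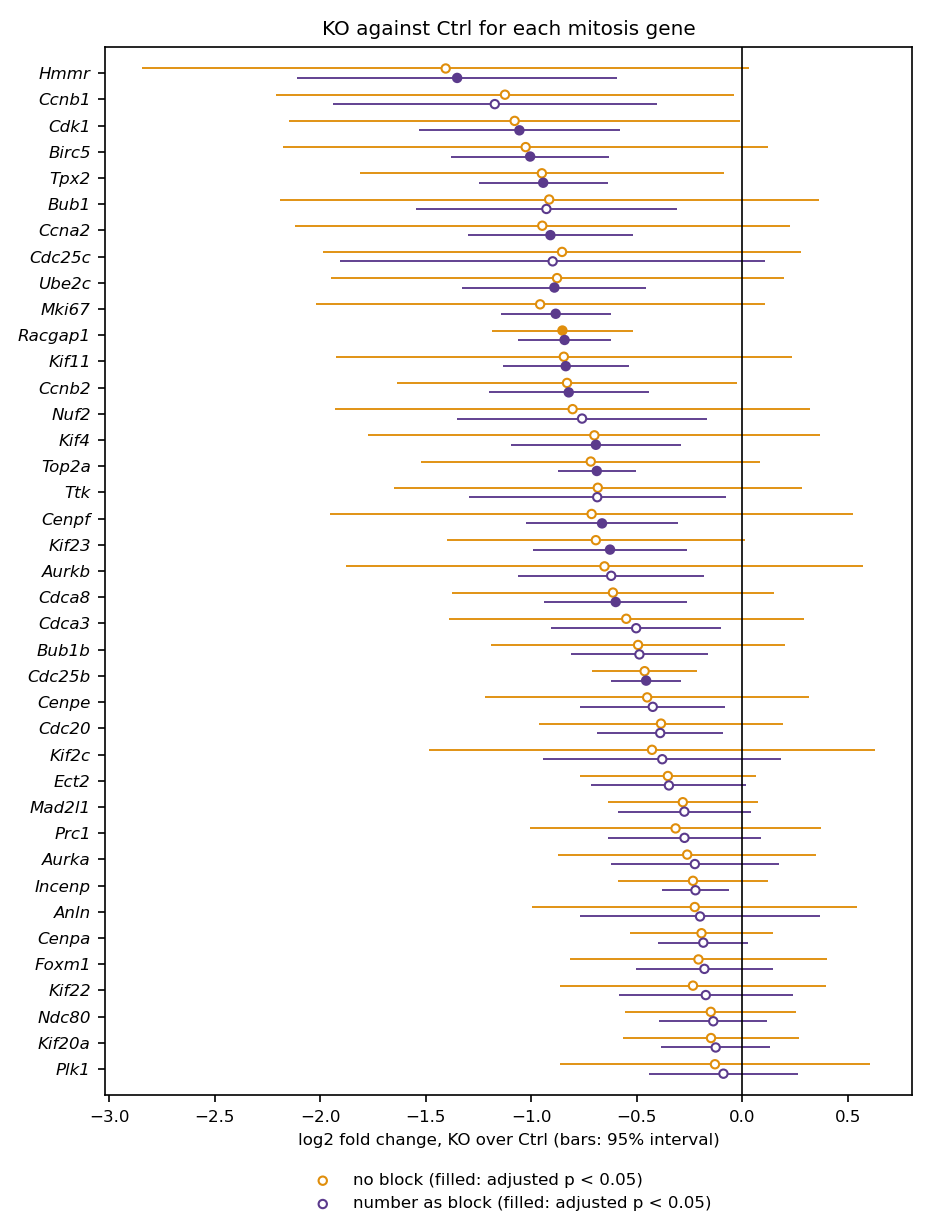
Log2 fold change of KO over Ctrl (x axis) for each of the 39 genes (y axis), with 95% intervals, from the unpaired comparison and with the library number as block; filled points have an adjusted p under 0.05. All 39 values lie below 0 in both comparisons, 1 point is filled unpaired and 16 are filled with the block.

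Mki67 (ENSMUSG00000031004), whose protein coats mitotic chromosomes and is the usual marker of cycling cells, had 56.7, 57.8 and 23.9 CPM in KO libraries 1 to 3, against 84.4, 147 and 38.4 CPM in Ctrl libraries 1 to 3. Each KO library was below the Ctrl library of its number, but KO libraries 1 and 2 were above Ctrl library 3. It was called 1.85-fold lower with the block (log2 fold change -0.88 ± 0.12 (SE), adjusted p = 0.000919), and was not called unpaired (-0.96 ± 0.47, adjusted p = 0.444). Top2a (ENSMUSG00000020914), the topoisomerase that untangles sister chromatids, had 41.9, 44.0 and 21.9 CPM in KO, against 60.1, 85.6 and 32.4 CPM in Ctrl. It showed the same order of libraries and was 1.61-fold lower with the block (-0.69 ± 0.08, adjusted p = 0.000467; unpaired adjusted p = 0.447).

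**Figure D3:**
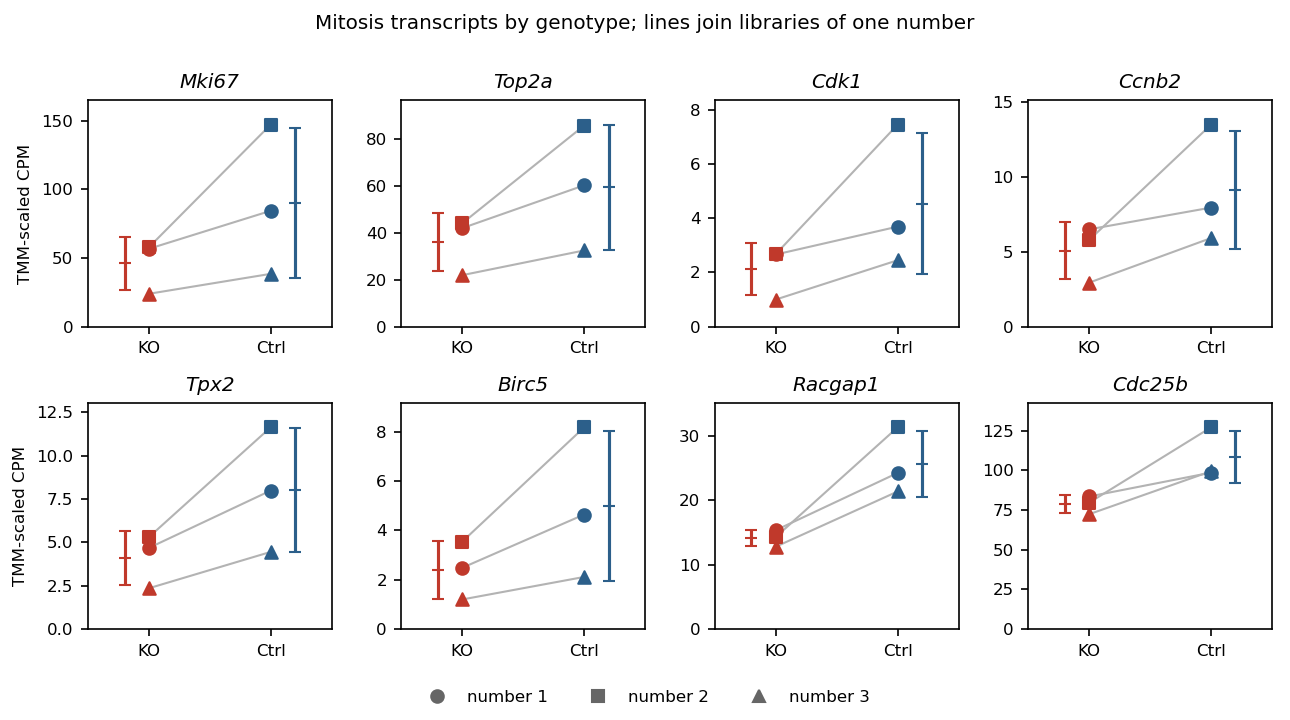
TMM-scaled CPM (y axis, linear from 0) of 8 genes in the KO and Ctrl libraries; marker shapes and joining lines give the library number, and the bars beside the points are mean ± SD (n = 3 each). For Racgap1 and Cdc25b all KO points lie below all Ctrl points, while for each of the other genes drawn KO library 1 lies above Ctrl library 3.

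The CDK1 engine and its regulators had 4 of 6 genes called lower with the block and 0 unpaired. Cdk1 (ENSMUSG00000019942), the kinase that drives entry into mitosis, had 2.66, 2.68 and 1.00 CPM in KO, against 3.69, 7.45 and 2.45 CPM in Ctrl, and was 2.08-fold lower with the block (-1.06 ± 0.22, adjusted p = 0.0150). Ccna2, the cyclin of S and G2 phase, had 4.26, 4.23 and 1.57 CPM in KO, against 6.41, 10.7 and 2.56 CPM in Ctrl (1.88-fold lower, adjusted p = 0.0113 with the block). Ccnb2, a B-type cyclin, had 6.50, 5.79 and 2.94 CPM in KO, against 7.95, 13.5 and 5.92 CPM in Ctrl (1.77-fold lower, adjusted p = 0.0171 with the block). For each of these 3 genes KO library 1 exceeded Ctrl library 3, so the groups overlapped.

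Cdc25b (ENSMUSG00000027330), a phosphatase that activates CDK1, had 83.5, 79.7 and 72.4 CPM in KO, against 98.5, 127 and 99.4 CPM in Ctrl. All KO libraries lay below all Ctrl libraries, which held for 2 of the 39 genes, Cdc25b and Racgap1, and for 10.4% of all tested genes. The opposite, all KO above all Ctrl, held for 0 of the 39 and 8.63% of all tested genes. The 3 KO libraries spread over 1.15-fold for Cdc25b. It was 1.37-fold lower with the block (-0.46 ± 0.08, adjusted p = 0.00404), not called unpaired by edgeR (adjusted p = 0.104) and called unpaired by DESeq2 (adjusted p = 0.00639). Ccnb1, the main B-type cyclin, rested on few reads, with 8, 14 and 4 counts in KO and 26, 26 and 15 in Ctrl. It was not called with the block (-1.17 ± 0.35, adjusted p = 0.0712). Cdc25c, another CDK1-activating phosphatase, had the fewest counts of the list, with 3, 10 and 4 counts in KO and 12, 13 and 12 in Ctrl (adjusted p = 0.273 with the block).

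Of the chromosomal passenger complex, which corrects kinetochore attachment and moves to the midzone for cytokinesis, 2 of 4 genes were called with the block. Birc5, the survivin subunit, had 2.49, 3.55 and 1.21 CPM in KO, against 4.65, 8.18 and 2.12 CPM in Ctrl, and was 2.01-fold lower (-1.01 ± 0.17, adjusted p = 0.00487). Cdca8, the borealin subunit, had 3.76, 4.67 and 2.41 CPM in KO, against 4.99, 8.13 and 3.58 CPM in Ctrl (1.52-fold lower, adjusted p = 0.0422), and lost this call in DESeq2 with the block (adjusted p = 0.270). Incenp, the scaffold of the complex, had 49.0, 48.2 and 39.4 CPM in KO, against 54.5, 64.8 and 41.6 CPM in Ctrl. It was lower in KO in each number but did not pass with the block (-0.22 ± 0.07, adjusted p = 0.0975). Aurkb, the kinase of the complex, ranged from 1.10 to 3.17 CPM in KO and from 1.35 to 6.13 CPM in Ctrl (adjusted p = 0.0924).

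Polo-like kinase 1 and Aurora A, which drive centrosome maturation and spindle assembly, had 0 of 2 genes called. Plk1 had 8.10, 7.35 and 5.04 CPM in KO, against 7.60, 10.8 and 4.16 CPM in Ctrl, so KO was the higher in numbers 1 and 3 and the lower in number 2. Its log2 fold change with the block was -0.09 with a 95% interval of -0.44 to 0.26, and without Ctrl library 2 the unpaired value turned to 0.22. Aurka, which shares part of its locus with Cstf1, ranged from 3.88 to 4.48 CPM in KO and from 3.21 to 6.95 CPM in Ctrl (-0.22 with the block, 95% interval -0.62 to 0.17). That Plk1 and Cdk1 respond differently to genotype was not tested.

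The spindle checkpoint had 0 of 4 genes called in either comparison. Bub1b, the BUBR1 checkpoint protein, had 11.4, 10.8 and 5.87 CPM in KO, against 11.4, 19.04 and 9.38 CPM in Ctrl (-0.49 ± 0.15 with the block, adjusted p = 0.0753). In number 1 the genotypes were level and in numbers 2 and 3 KO was lower. Bub1, the kinase that recruits checkpoint proteins to kinetochores, ranged from 0.472 to 2.28 CPM in KO and from 1.64 to 5.14 CPM in Ctrl (adjusted p = 0.0756). Ttk, the MPS1 kinase at the top of the checkpoint, ranged from 0.472 to 1.02 CPM in KO and from 0.803 to 2.05 CPM in Ctrl (adjusted p = 0.172). Mad2l1, the inhibitor of CDC20, ranged from 6.91 to 8.71 CPM in KO and from 8.37 to 11.1 CPM in Ctrl (adjusted p = 0.286) and, unlike most of the list, had its highest KO level in library 3.

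Among the cofactors of protein destruction, 1 of 3 genes was called with the block. Ube2c, the ubiquitin-conjugating enzyme of the APC/C, had 3.80, 3.94 and 1.21 CPM in KO, against 4.84, 8.73 and 3.10 CPM in Ctrl. It was 1.85-fold lower with the block (-0.89 ± 0.20, adjusted p = 0.0221), and was not called by DESeq2 with the block (adjusted p = 0.0520). Cdc20, the APC/C activator, had 8.48, 8.23 and 4.93 CPM in KO, against 8.76, 12.5 and 7.23 CPM in Ctrl, lower in KO in each number but without a call (-0.39 ± 0.14, adjusted p = 0.119). Cdca3, a cofactor in the destruction of mitotic inhibitors, ranged from 2.47 to 4.33 CPM in KO and from 3.14 to 8.45 CPM in Ctrl (adjusted p = 0.132).

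Mitotic kinesins, the motors that build the spindle and its midzone, divided into genes with a call and genes whose direction varied with the number. Kif11, which pushes the spindle poles apart, had 7.09, 8.03 and 2.68 CPM in KO, against 10.4, 17.0 and 4.97 CPM in Ctrl, and was 1.79-fold lower with the block (-0.84 ± 0.14, adjusted p = 0.00362). Kif23, the motor of the centralspindlin complex, had 6.25, 7.25 and 5.56 CPM in KO, against 8.07, 16.2 and 6.72 CPM in Ctrl (1.54-fold lower, adjusted p = 0.0479). Kif4, a chromosome-bound motor that shortens midzone microtubules, had 2.57, 3.41 and 1.15 CPM in KO, against 3.42, 6.32 and 2.01 CPM in Ctrl (1.62-fold lower, adjusted p = 0.0476). Kif23 and Kif4 were not called by DESeq2 with the block (adjusted p = 0.135 and 0.301), nor by edgeR with the block after leaving out any 1 number.

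The other kinesins were without a call. Kif20a, a midzone motor, had 15.95, 15.5 and 13.6 CPM in KO, against 15.5, 21.8 and 12.8 CPM in Ctrl. KO was above Ctrl in numbers 1 and 3, the value with the block was -0.13 (95% interval -0.38 to 0.13), and without Ctrl library 2 the unpaired value was 0.09. This gene overlaps Brd8 and Cdc23 in the RefSeq annotation of GRCm38.p6, and whether the counting used strand is not stated in the sources used here. Kif22, which pushes chromosome arms outward, ranged from 8.61 to 9.91 CPM in KO and from 6.90 to 16.5 CPM in Ctrl (adjusted p = 0.633 with the block). Kif2c, which takes apart faulty kinetochore attachments, ranged from 1.10 to 2.32 CPM in KO and from 1.06 to 3.95 CPM in Ctrl (adjusted p = 0.416).

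At centromeres and kinetochores, 1 of 5 genes was called with the block. Cenpf, a large kinetochore protein that accumulates in G2, had 6.08, 6.42 and 2.15 CPM in KO, against 7.91, 13.6 and 2.85 CPM in Ctrl, and was 1.59-fold lower with the block (-0.66 ± 0.16, adjusted p = 0.0349). DESeq2 with the block did not call it (adjusted p = 0.152). Cenpa, the histone H3 variant that marks centromeres, had 28.0, 23.7 and 22.5 CPM in KO, against 29.0, 33.5 and 22.5 CPM in Ctrl, level in number 3 and without a call (-0.18 ± 0.10, adjusted p = 0.290). Cenpe, the kinetochore motor, and Ndc80 and Nuf2, which bind microtubules together, had log2 fold changes of -0.42, -0.14 and -0.76 with the block, and adjusted p-values of 0.136, 0.526 and 0.122.

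Of 3 spindle microtubule proteins, 2 were called with the block. Tpx2 (ENSMUSG00000027469), which activates Aurora A and nucleates spindle microtubules, had 4.68, 5.30 and 2.36 CPM in KO, against 7.99, 11.6 and 4.45 CPM in Ctrl. It was 1.92-fold lower with the block (-0.94 ± 0.14, adjusted p = 0.00189; unpaired adjusted p = 0.350). Hmmr, a hyaluronan receptor that also binds spindle microtubules, had the lowest fitted value of the list, with 1.18, 0.973 and 0.262 CPM in KO, against 1.46, 4.18 and 0.986 CPM in Ctrl. These levels rest on 28, 20 and 5 counts in KO and 38, 92 and 27 in Ctrl, and its 2.55-fold lower value with the block (-1.35 ± 0.35, adjusted p = 0.0412) was not called by DESeq2 with the block (adjusted p = 0.129). Prc1, which bundles midzone microtubules and shares part of its locus with Rccd1, ranged from 4.25 to 5.89 CPM in KO and from 3.76 to 9.36 CPM in Ctrl (adjusted p = 0.354).

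Racgap1 (ENSMUSG00000023015) was the gene called in the unpaired comparison. Its product is the GTPase-activating subunit of centralspindlin, the complex that positions the cleavage furrow. It had 15.4, 14.3 and 12.8 CPM in KO libraries 1 to 3, against 24.2, 31.3 and 21.4 CPM in Ctrl libraries 1 to 3. All KO libraries lay below all Ctrl libraries, by 1.58-fold, 2.19-fold and 1.67-fold in numbers 1 to 3. The unpaired log2 fold change was -0.85 ± 0.15 (SE, adjusted p = 0.0300), 1.81-fold lower in KO, and with the block it was -0.84 ± 0.10 (adjusted p = 0.000400). The unpaired call was lost without KO library 1 (adjusted p = 0.119), KO library 2 (0.120), KO library 3 (0.130), Ctrl library 1 (0.0831) or Ctrl library 2 (0.0600), and by limma-voom (0.0510). The log2 fold change stayed between -0.97 and -0.69 with any 1 library left out.

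Ect2 and Anln, grouped with Racgap1 as cytokinesis genes, did not pass. Ect2, the exchange factor that Racgap1 binds to activate RhoA at the furrow, ranged from 3.31 to 4.01 CPM in KO and from 3.94 to 5.36 CPM in Ctrl (-0.35 ± 0.17 with the block, adjusted p = 0.247). Anln, which links RhoA to the contractile ring, ranged from 1.26 to 1.73 CPM in KO and from 1.02 to 2.45 CPM in Ctrl (adjusted p = 0.697). Kif23, the centralspindlin motor described above, was called lower in KO only with the block. Foxm1, a transcription factor that activates many genes of this list, had 7.39, 7.06 and 5.25 CPM in KO, against 7.57, 10.5 and 4.86 CPM in Ctrl. Its log2 fold change with the block was -0.18 with a 95% interval of -0.50 to 0.15 (adjusted p = 0.514), KO was above Ctrl in number 3, and without Ctrl library 2 the unpaired value was 0.08.

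Promoters of the listed genes were searched for known motifs chosen beforehand, not for any letters that the genes share. Late cell cycle promoters are known for the cell cycle homology region (CHR), bound by the MuvB core of the DREAM and B-MYB complexes, and for CCAAT boxes, bound by NF-Y. The RefSeq promoter table (build GRCm38.p6) held windows of 250 bases before to 50 bases after a start site for 32 of the 39 genes; Ccna2, Cdc25c, Aurkb, Incenp, Kif20a, Tpx2 and Foxm1 had none. By edgeR, Racgap1 was called in both comparisons, Mki67, Top2a, Cdk1 and Cdc25b only with the block, and Plk1 in neither. The windows of these 6 genes are shown 5′ to 3′ on the gene's strand. They lie at chr15:99651607-99651906 (minus strand), chr7:135716330-135716629 (minus), chr11:99024140-99024439 (minus), chr10:69352863-69353162 (minus), chr2:131186698-131186997 (plus) and chr7:122159185-122159484 (plus). Capitals mark TTTGAA, its variant TTCGAA and CCAAT, each on either strand (TTCAAA and ATTGG on the other strand).
Racgap1: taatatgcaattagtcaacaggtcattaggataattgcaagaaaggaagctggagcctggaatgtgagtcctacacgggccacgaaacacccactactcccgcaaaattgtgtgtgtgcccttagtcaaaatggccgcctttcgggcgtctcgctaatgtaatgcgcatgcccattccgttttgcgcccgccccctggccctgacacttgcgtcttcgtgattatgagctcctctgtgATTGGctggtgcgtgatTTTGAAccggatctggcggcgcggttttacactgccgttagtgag
Mki67: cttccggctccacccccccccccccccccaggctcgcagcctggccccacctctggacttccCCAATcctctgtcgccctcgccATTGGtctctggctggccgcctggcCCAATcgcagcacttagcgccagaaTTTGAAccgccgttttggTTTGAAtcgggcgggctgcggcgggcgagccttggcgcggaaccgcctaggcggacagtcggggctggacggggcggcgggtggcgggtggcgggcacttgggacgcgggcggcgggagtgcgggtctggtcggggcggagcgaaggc
Top2a: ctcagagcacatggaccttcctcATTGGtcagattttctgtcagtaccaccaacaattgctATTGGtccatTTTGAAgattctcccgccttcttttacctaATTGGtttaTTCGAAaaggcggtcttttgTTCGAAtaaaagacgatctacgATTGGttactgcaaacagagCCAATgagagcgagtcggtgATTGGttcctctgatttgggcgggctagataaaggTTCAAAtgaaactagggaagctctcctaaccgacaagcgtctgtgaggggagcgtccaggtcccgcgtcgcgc
Cdk1: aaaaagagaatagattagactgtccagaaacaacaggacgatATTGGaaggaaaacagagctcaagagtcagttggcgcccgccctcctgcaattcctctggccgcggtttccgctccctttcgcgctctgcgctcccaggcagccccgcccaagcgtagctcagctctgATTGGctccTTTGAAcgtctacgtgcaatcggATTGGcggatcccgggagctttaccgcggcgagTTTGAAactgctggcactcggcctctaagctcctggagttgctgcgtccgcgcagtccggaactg
Cdc25b: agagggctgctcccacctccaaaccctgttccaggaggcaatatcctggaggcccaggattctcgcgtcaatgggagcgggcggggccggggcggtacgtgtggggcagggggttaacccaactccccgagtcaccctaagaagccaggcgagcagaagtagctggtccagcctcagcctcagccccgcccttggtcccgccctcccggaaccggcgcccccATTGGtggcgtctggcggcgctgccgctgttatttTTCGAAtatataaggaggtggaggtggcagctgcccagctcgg
Plk1: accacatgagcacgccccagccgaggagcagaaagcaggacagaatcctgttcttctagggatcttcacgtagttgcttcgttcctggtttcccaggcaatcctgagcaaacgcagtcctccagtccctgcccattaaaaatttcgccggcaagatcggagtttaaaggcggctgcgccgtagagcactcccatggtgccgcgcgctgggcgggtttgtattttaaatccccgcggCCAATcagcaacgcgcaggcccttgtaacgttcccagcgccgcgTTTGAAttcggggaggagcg

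The CHR letters TTTGAA, on either strand, were found in 25 of 32 genes (78.1%), against 20.2% of the 27025 genes in the table. Those 27025 genes were not limited to the genes tested here. All 25 had a match within 100 bases before to 50 bases after the start, where 9.43% of all genes had one. CCAAT was found in 26 of 32 (81.2%), against 41.1% of all genes, and both motifs in 22 of 32 (68.8%), against 8.97%. The variants TTTAAA and TTCGAA, which read the same on both strands, were found in 9 and 4 of the 32 genes, against 14.9% and 1.8% of all genes. In the printed windows, Racgap1 and Plk1 each hold 1 TTTGAA and 1 CCAAT, Mki67 and Cdk1 each 2 and 3, and Top2a 2 and 6 together with 2 TTCGAA. Cdc25b holds no TTTGAA but 1 CCAAT and 1 TTCGAA. The variant TTTAAA, which is not capitalised, is in the Plk1 window and in none of the other printed windows.

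**Figure D4:**
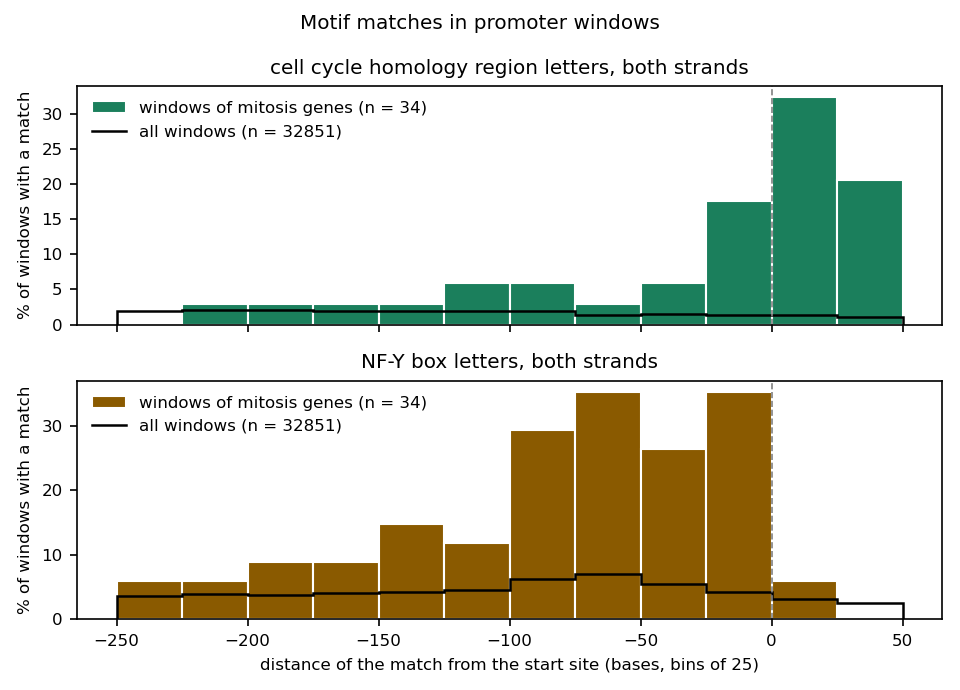
Share of promoter windows with a motif match (y axis, percent) by distance from the start site (x axis, bins of 25 bases), for 34 windows of the mitosis genes (bars) and all 32851 windows (black line). In the bin from 0 to 25 bases after the start, 32.4% of the mitosis gene windows and 1.33% of all windows have the CHR letters; NF-Y box letters lie mostly in the 100 bases before the start.

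TTTGAA was in 12 of the 14 genes with a window that were called with the block and in 13 of the 18 that were not, and CCAAT in 13 of 14 and 13 of 18. These differences were not tested, a match is a description of letters and not of binding, and no match says only that the letters are not in this window.

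Further mitosis genes outside the list leaned the same way with fewer calls. Of 83 tested genes, among them condensins, further kinesins and centromere proteins, 0 were called unpaired. An unadjusted p under 0.05 in either direction was found for 10 of the 83, against 1514 of all 11990 tested genes. Of these 10, Cenpt, Ncapd3 and Reep4 were higher in KO and the others lower. The median log2 fold change was -0.34, with 72 of 83 below 0, against 6140 of all 11990 tested genes. With the block, 4 were called lower (4.82%, close to the 4.39% of all tested genes), namely Kif18b, Lmnb1, Ncaph and Nek2, and 1 higher, the condensin II subunit Ncapd3, which is named after its value was seen. Ncaph, a condensin I subunit, had 5.70, 5.84 and 3.88 CPM in KO, against 8.37, 12.3 and 6.10 CPM in Ctrl (adjusted p = 0.00751 with the block). In this wider list too, Ctrl library 2 was the highest of the 6 for most genes (65 of 83).

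DNA replication genes had a median of -0.21 over 37 tested genes, with 36 below 0, against 6140 of all 11990 tested genes. None was called unpaired, and 6 had an unadjusted p under 0.05 in either direction, against 1514 of all 11990 tested genes. With the block 8 were called lower (21.6%, against 4.39% of all tested genes), led by Rrm2, Mcm6, Uhrf1 and Clspn. Rrm2, the ribonucleotide reductase subunit of S phase, had 9.71, 9.64 and 5.40 CPM in KO, against 13.6, 21.6 and 9.35 CPM in Ctrl (adjusted p = 0.00333 with the block). The other cell cycle lists had medians near 0. Genes for G1 cyclins, CDKs and E2F factors had a median of -0.01 over 16 genes, with E2f2 and E2f8 called lower with the block. MuvB, DREAM and B-MYB genes had -0.04 over 16, with Rbl2 called lower with the block, and the APC/C core -0.03 over 16, with 0 called. CDK inhibitors and antiproliferative genes had -0.07 over 18, and the 2 called with the block, Cdkn2c and Gadd45b, were lower in KO. In these 4 lists edgeR called 0 genes unpaired. In the order given, 1, 1, 0 and 3 genes had an unadjusted p under 0.05 in either direction, against 1514 of all 11990 tested genes. The shares called lower with the block were 12.5%, 6.25%, 0% and 11.1%, against 4.39% of all tested genes. 

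**Figure D5:**
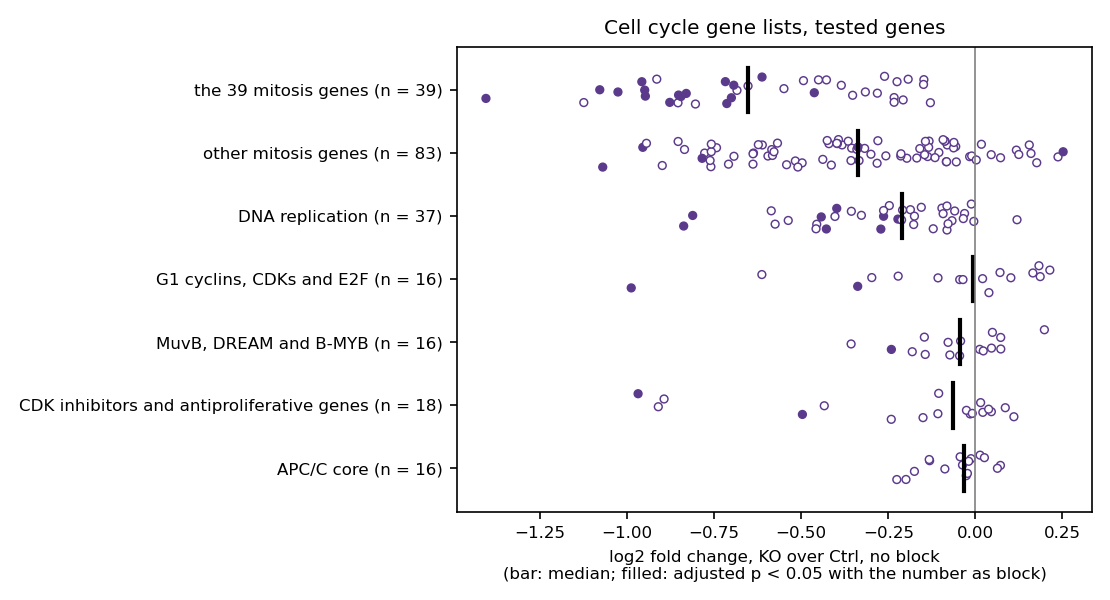
Unpaired log2 fold change of KO over Ctrl (x axis) for the tested genes of 7 cell cycle lists (rows), with the median as a black bar and genes with an adjusted p under 0.05 with the block filled. The 39 mitosis genes have a median of -0.65, the other mitosis genes of -0.34 and DNA replication genes of -0.21, while the other lists have medians between -0.07 and -0.01.

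Transcripts of other cells differed between the libraries as well. The 12 markers of red pulp macrophages and other myeloid cells summed to 555, 1333 and 482 CPM in KO libraries 1 to 3, against 423, 932 and 494 CPM in Ctrl libraries 1 to 3, with the number 2 library highest in both genotypes. Of these 12 genes, 0 were called unpaired, and none was at 0 over the 6 libraries. With the block 4 were called higher in KO (Mrc1, Vcam1, Adgre1 and Cd14), against 1.97% of all tested genes. Summed B cell markers were 14.1 to 20.7 CPM in KO and 18.3 to 24.8 CPM in Ctrl, plasma cell markers 57.4 to 74.2 CPM in KO and 55.9 to 80.9 CPM in Ctrl, erythroid markers 8.96 to 17.3 CPM in KO and 6.91 to 11.1 CPM in Ctrl, and CD8 T and NK cell markers 19.4 to 22.5 CPM in KO and 18.1 to 19.6 CPM in Ctrl. None of these lists had a gene called unpaired, and with the block Cd22 was called lower. The list of Treg identity markers held the Foxp3, Cd4, Cd3e and Il2ra genes given above, with Ctla4 and Ikzf2. It had 0 of 6 genes called unpaired and 1, Ctla4, called lower with the block. The part of these cells in the mitosis transcripts was not tested.

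Most markers of effector-type Treg had lower levels in KO, with 24 of 26 fitted below 0, against 6140 of all 11990 tested genes. The 26 genes summed to 1607, 1758 and 1357 CPM in KO libraries 1 to 3, against 2035, 2131 and 1769 CPM in Ctrl libraries 1 to 3, with every KO library below every Ctrl library. Unpaired, 16 of 26 were called lower and 0 higher, against 1.39% and 0.1% of all tested genes, and with the block 22 were called lower, against 4.39%. This list was chosen with earlier results of these data known. In both genotypes library 2 had the highest sum and library 3 the lowest, and Ctrl library 2 was the highest of the 6 for 20 of the 26 genes. Cxcr3, a chemokine receptor of this subset, had 6.92, 7.79 and 6.03 CPM in KO, against 39.8, 54.8 and 41.2 CPM in Ctrl (edgeR, unpaired adjusted p = 0.000434). Their part in the mitosis result was not tested.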

How the data were processed

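RNA from 6 Treg pools was sequenced after poly(A) selection with a NEBNext Ultra II kit, per the labels' protocols; ATAC-seq libraries were not analysed here. The authors deposited 1 table of read counts per Ensembl gene, which the labels attribute to HTSeq. HISAT2, Cufflinks, DESeq2 and the builds mm10 and mm9 are named, with no role, in the submitters' processing notes; neither the annotation nor the strand setting is stated in the sources used here. Of 22553 IDs, 22522 matched a symbol. Libraries of a genotype differed by more than sampling noise (chi-square per degree of freedom 8.75 to 27.4).

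Tests on these counts used edgeR 4.0.16 under R 4.3.3 (filterByExpr, minimum count 10 and total 15, 11990 genes kept; TMM; quasi-likelihood F test), with and without the library number as block. Both fits were run on counts simulated with known changes, with an effect shared by same-numbered libraries built in. There the unpaired fit missed most changes of the smallest size and kept its false calls within the threshold. The fit with the block found most of them, with more false calls than the threshold allows. The built-in effect favours the block, so the simulation cannot decide which fit suits these libraries. Standard errors come from the F statistic, and intervals are 95%. Alternatives were DESeq2 1.42.0, limma-voom 3.58.1, other size factors, no filter and libraries left out. Whether the number pairs the libraries is not stated in the labels. Same-numbered deviations from genotype means, on log2(CPM + 1), correlated at 0.35, 0.55 and 0.56 over all tested genes. Differently numbered libraries were not compared in this way. Counting floors cover counting error only.

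Members and lists were chosen with earlier results of these data known. Values in every library are given for members called unpaired or with the block and for the member with the highest mean count of each role; of the other lists, called genes are named, up to 4 by smallest adjusted p. In RefSeq GRCm38.p6, 7 of 39 members overlap another protein-coding gene (Ccna2, Aurka, Cdc20, Kif20a, Prc1, Anln and Foxm1), and without a known strand setting their reads may be shared.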

Additional observations from a re-analysis of the deposited data

How the results depend on the processing

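Over all tested genes, the unpaired comparison called 167 lower and 12 higher. With the replicate block it called 526 lower and 236 higher, with DESeq2 262 and 76, with DESeq2 and the block 300 and 138, and without both libraries numbered 2 it called 54 and 0; limma-voom called 3 higher. With the block, leaving out number 1 gave 332 and 199, number 2 gave 496 and 208, number 3 gave 309 and 66, DESeq2 size factors gave 512 and 270 and no filter gave 578 and 301. These fits with the block and other changes were chosen after seeing the data.

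Of the 39 members, 1 was called lower unpaired, 16 with the replicate block, 2 with DESeq2, 10 with DESeq2 and the block, 0 with limma-voom and 0 without both libraries numbered 2. The block changed the call of 15 members and of no other. With the block the count was 15, 7 and 8 without numbers 1, 2 and 3, 15 with DESeq2 size factors and 16 with no filter. Leaving out 1 library at a time, 26 to 166 genes were called lower and 0 to 10 higher, with 0 to 1 members lower and 0 to 0 higher, and the members' median log2 fold change ran from -0.93 to -0.18, which was the value without Ctrl library 2.

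Of the 39 fitted values, all below 0 in the unpaired comparison, 38 were below 0 without KO library 3, 30 without Ctrl library 2, 33 without both libraries numbered 2 and 32 with the block as well. Among the members given in every library, those that changed sign were Plk1 (0.05 without KO library 3, 0.22 without Ctrl library 2, 0.17 without both libraries numbered 2, 0.17 with the block as well), Kif20a (0.088, 0.067 and 0.065 under the last 3 of these) and Foxm1 (0.083, 0.032 and 0.030); the cause was not tested. With 1 library left out, Plk1 ran from -0.42 to 0.22, Kif20a from -0.31 to 0.088 and Foxm1 from -0.45 to 0.083. Depth limits Cdc25c, Ccnb1, Ttk and Hmmr, which rest on the fewest counts.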
